A study of Homo sapiens with 6 samples.

Results

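Matrix metalloproteinases (MMPs), the ADAM sheddases ADAM10 and ADAM17, and tissue inhibitors of metalloproteinases (TIMPs) were followed in HaCaT cells, an established line of human epidermal keratinocytes that immortalized spontaneously. The set was fixed by name and held 10 of the 46287 genes in the table: MMP1, MMP9, MMP10, MMP14, MMP28, ADAM10, ADAM17, TIMP1, TIMP2 and TIMP3. Bulk RNA was sequenced from 3 libraries of wild-type control cells and 3 libraries of cells edited with CRISPR/Cas9, whose genotype is given as homozygous knockout of SDR42E1. SDR42E1 encodes a short-chain dehydrogenase/reductase, here studied as a possible modulator of vitamin D levels. All cells grew as monolayers in medium with 10% fetal bovine serum and were harvested at 70% to 80% confluency. The labels name the replicates biological but give neither the number of edited clones nor whether cultures were separate, so the tests use a spread among libraries that may be technical.

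MMPs are zinc endopeptidases, made as inactive pro-enzymes, that cut collagens, laminins and other extracellular proteins. Keratinocytes use them to move over and remodel the matrix of a healing wound. ADAM10 and ADAM17 are membrane proteases that release the outer part of other membrane proteins, among them EGF receptor ligands, cadherins and Notch. TIMPs bind the active site of these enzymes and block it. Only RNA was measured here, and enzyme activity, secretion and shedding were not analysed here.

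SDR42E1 was checked first. It had 650, 822 and 601 counts in control libraries and 268, 265 and 237 in knockout libraries, so each knockout library was below each control library. Its log2 difference was -1.16 (SE 0.08; adjusted p from edgeR's quasi-likelihood test = 2.69e-14), with 21.3 ± 1.61 CPM (counts scaled to a common library size, SD, n = 3) still present in the knockout. Library totals ran from 11504473 to 16928201 counts. Libraries of 1 group correlated at 0.987 to 0.991 in log2 CPM, and libraries of different groups at 0.959 to 0.963. All 17 listed keratinocyte markers passed the filter on low counts, with a summed level of 12489 to 13214 CPM in control and 14755 to 15204 CPM in knockout libraries. That sum joins opposite changes. At an adjusted p under 0.05, 10 of the 17 rose and 2 fell, where 24.6% and 25.8% of all tested genes did. KRT6A and KRT17 rose (log2 1.26 and 0.66), while KRT5 (-0.66) and JUP (-0.46) fell. Markers of leukocytes (11 genes) summed to 6.55 to 9.72 and 9.18 to 10.8 CPM, with AIF1, MPO, CD3E and MS4A1 at 0 counts throughout. CD68 made up most of that sum, with means of 6.27 and 8.18 CPM. Its groups did not overlap, but its log2 value of 0.38 missed the threshold (adjusted p = 0.0695 by edgeR's test). The 5 endothelial markers summed to 3.65 to 4.28 and 1.92 to 2.66 CPM. Of these, VWF fell (log2 -0.98, adjusted p = 0.0315 by edgeR's test), though not with DESeq2, and CDH5 (-0.48) missed the threshold. The 6 melanocyte markers summed to 24.3 to 25.2 and 19.5 to 23.7 CPM, of which MITF made up most and TYR was at 0.

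Knockout cells had more MMP1, MMP9, MMP14 and TIMP1 RNA and less MMP28 RNA than control cells. MMP1 was about 1.92-fold higher, MMP9 4.45-fold higher at a very low level, and TIMP1 1.41-fold higher, whereas MMP28 was 2.03-fold lower. MMP10, ADAM10, ADAM17, TIMP2 and TIMP3 did not pass the threshold. All 10 genes passed the filter on low counts. Thus 5 of 10 passed an adjusted p of 0.05, 4 upward and 1 downward, where 50.4% of all 12293 tested genes passed (24.6% higher and 25.8% lower). In 6 of 10 the 2 groups did not overlap, against 56.5% of all tested genes. Both shares lie near the background, so the counts alone say nothing about this set. Its median log2 fold change was 0.12, and that of all tested genes was -0.004.

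**Figure D1:**
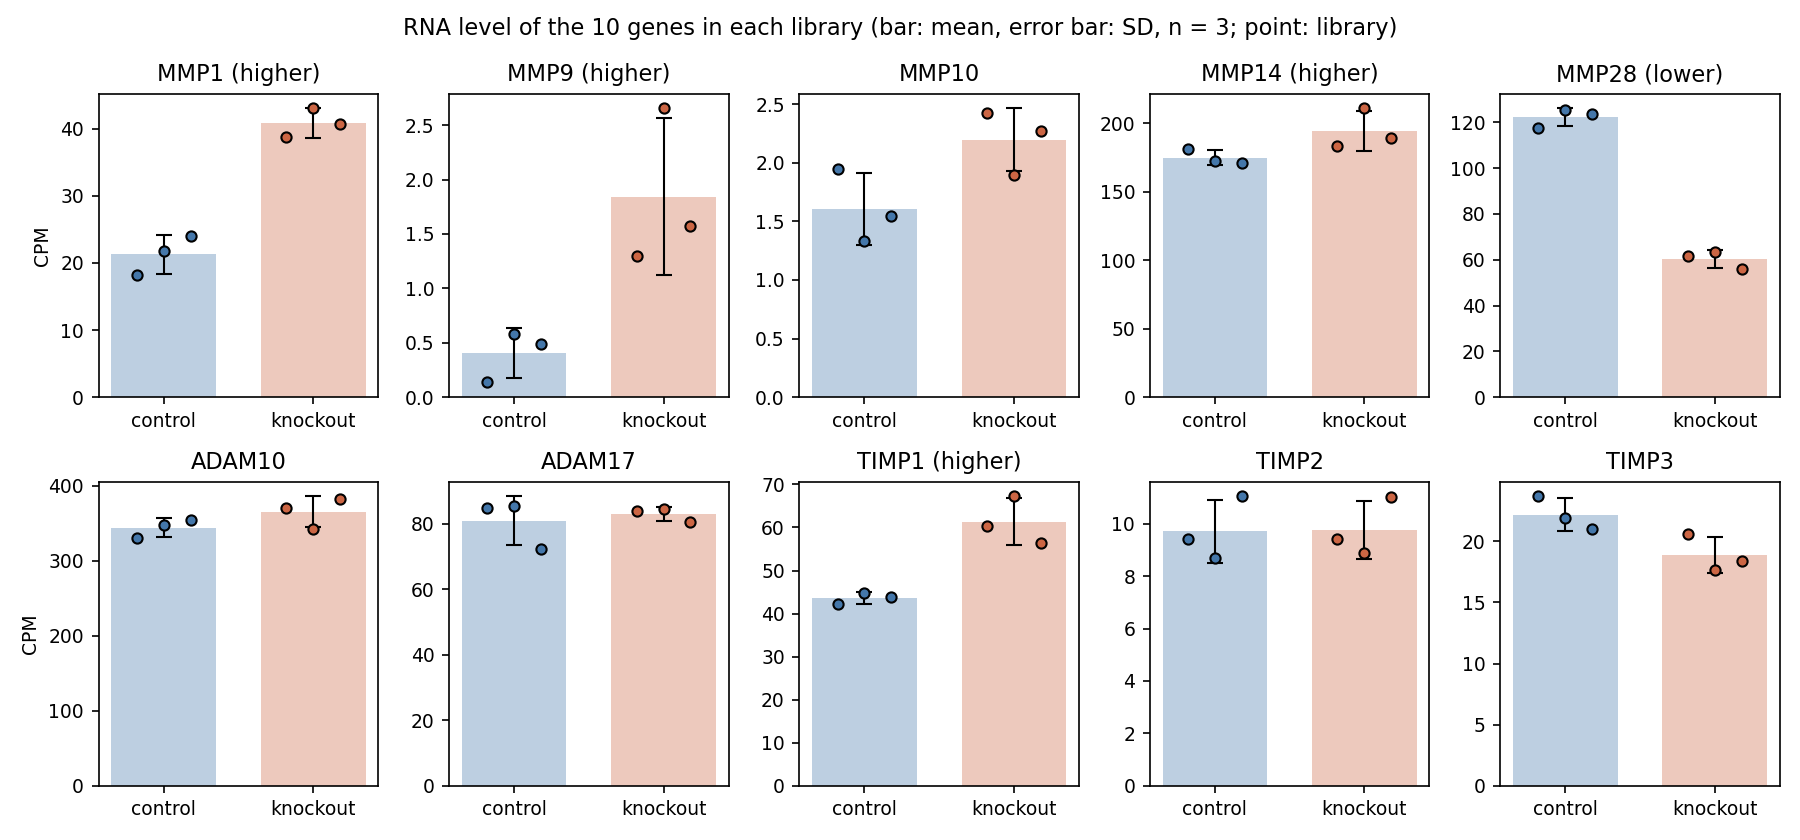
RNA level (CPM, linear axis from 0) of each of the 10 genes in the 3 control and 3 knockout libraries. Points are libraries, bars are means and error bars are SD; "higher" or "lower" in a title marks an adjusted p under 0.05. MMP28 stands at 118 to 125 CPM in control and 56.1 to 63.4 CPM in knockout libraries.

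MMP1, the interstitial collagenase, starts the cleavage of fibrillar collagen and is made by keratinocytes at a wound's edge. Its level was 18.1, 21.7 and 23.9 CPM in control libraries 1 to 3 and 38.7, 43.1 and 40.7 CPM in knockout libraries 1 to 3. Each knockout library lay above each control library. On the log2 scale the difference was 0.94 with SE 0.09 (adjusted p = 7.61e-11). Its locus is chromosome 11, 102789920 to 102798160, minus strand (GRCh38, GENCODE release 29).

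MMP9, or gelatinase B, cuts denatured collagen and basement membrane collagen. It had 2, 10 and 6 counts in control libraries and 15, 35 and 18 in knockout libraries, or 0.403 ± 0.229 and 1.84 ± 0.719 CPM. The groups did not overlap, and knockout library 2 was the highest. The log2 fold change was 2.15 with a 95% interval from 1.22 to 3.09 (adjusted p = 0.00017). It summed to 18 counts in control and 68 in knockout libraries. The gene lies on chromosome 20, from 46008908 to 46016561 on the plus strand.

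MMP14, the membrane-type enzyme that activates pro-MMP2 and pro-MMP13 at the cell surface, had 181, 172 and 171 CPM in control libraries and 184, 211 and 189 CPM in knockout libraries. The groups were separate by a narrow margin, between control library 1 and knockout library 1. The rise was 0.15 on the log2 scale (95% interval 0.05 to 0.26, adjusted p = 0.0136). It did not pass without control replicate 2 (adjusted p = 0.0658), control replicate 3 (0.0620) or knockout replicate 2 (0.152). Its locus is chromosome 14, 22836557 to 22849027, on the plus strand.

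MMP28, or epilysin, is an MMP of keratinocytes in resting and healing epidermis. Its level was 118, 125 and 124 CPM in control libraries and 61.5, 63.4 and 56.1 CPM in knockout libraries. The groups lay far apart, and the spread within each was small beside the gap. On the log2 scale the difference was -1.02 with SE 0.06 (adjusted p = 7.50e-17). Its locus is chromosome 17, 35756249 to 35795707 (minus strand), where most neighbours were also lower. Of 32 other tested genes within 2 Mb on either side, 28 were below 0, with a median log2 fold change of -0.36. MMP28 overlaps TAF15 on the opposite strand, whose log2 fold change was -0.23 (adjusted p = 0.0299). TAF15 missed the threshold with DESeq2 (0.117) and without control replicate 2 (0.182), knockout replicate 1 (0.0967) or knockout replicate 2 (0.0702). How the counting used strand is unknown here, so reads of overlapping genes may be mixed. The part of the neighbours or of TAF15 in the MMP28 result was not tested.

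MMP10, or stromelysin 2, which wounded keratinocytes make at the migrating edge, had 27, 23 and 19 counts in control libraries and 28, 25 and 26 in knockout libraries. The groups overlapped in CPM (1.33 to 1.94 and 1.90 to 2.42). The log2 value was 0.45, with an interval from -0.20 to 1.11 (adjusted p = 0.245). That interval holds both a rise and a small fall, so the counts do not settle a direction. MMP10 lies beside MMP1, from 102770503 to 102780628 on the minus strand.

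ADAM10, which cuts Notch receptors, E-cadherin and the amyloid precursor protein, was abundant in both groups. Its level was 331, 347 and 355 CPM in control libraries and 371, 342 and 382 CPM in knockout libraries, and the groups overlapped. The log2 value was 0.08 (interval -0.01 to 0.18, adjusted p = 0.150), or 0.13 with adjusted p = 0.0370 without knockout replicate 2.

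ADAM17, also called TACE, releases tumour necrosis factor and several EGF receptor ligands. It had 84.8, 85.6 and 72.3 CPM in control libraries and 84.0, 84.5 and 80.5 CPM in knockout libraries. Apart from control library 3, which was lower, the libraries were close together. The log2 value was 0.03 (interval -0.09 to 0.16, adjusted p = 0.685). ADAM10 lies on chromosome 15 (58588807 to 58749978) and ADAM17 on chromosome 2 (9488486 to 9556732), both on the minus strand.

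TIMP1, a secreted inhibitor of most MMPs but a weak one of MMP14, was the inhibitor that rose. It had 42.2, 44.8 and 43.9 CPM in control libraries and 60.4, 67.2 and 56.5 CPM in knockout libraries, with no overlap. On the log2 scale the difference was 0.49 with SE 0.07 (adjusted p = 4.97e-07). TIMP1 lies on the X chromosome, from 47582313 to 47586789 on the plus strand, within SYN1 on the other strand, which had 11 counts in all (8 control, 3 knockout). Of 43 tested genes within 2 Mb, 12 were below 0, with a median of 0.10.

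TIMP2 inhibits MMPs and also bridges MMP14 to pro-MMP2, which lets MMP14 activate it. Its levels were 9.43, 8.68 and 11.04 CPM in control and 9.42, 8.89 and 11.02 CPM in knockout libraries, nearly the same range. The log2 value was 0.01 (interval -0.28 to 0.31, adjusted p = 0.948). TIMP3 binds the matrix and inhibits ADAM17 as well as MMPs. It had 23.7, 21.9 and 21.0 CPM in control and 20.6, 17.7 and 18.4 CPM in knockout libraries. The groups did not overlap, but the log2 value of -0.24 (interval -0.44 to -0.03) missed the threshold with adjusted p = 0.0505. It passed with upper-quartile scaling (0.0278), with a stricter filter of 1 CPM in 3 libraries (0.0478) and without knockout replicate 1 (0.0290). TIMP2 lies on chromosome 17 (78852977 to 78925387, minus strand) and TIMP3 on chromosome 22 (32801701 to 32863043, plus strand).

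Levels of different genes were compared per kilobase of each gene's longest GENCODE transcript (RPKM). In control cells the order was MMP28 (52.3 ± 1.71), MMP14 (46.9 ± 1.49), TIMP1 (39.8 ± 1.22), ADAM10 (30.1 ± 1.07), ADAM17 (12.3 ± 1.13), MMP1 (10.8 ± 1.49), TIMP3 (4.82 ± 0.294), TIMP2 (2.66 ± 0.331), MMP10 (0.913 ± 0.177) and MMP9 (0.173 ± 0.0981 RPKM). The neighbours ADAM17 and MMP1 overlapped. In knockout cells TIMP1 (56.1 ± 4.95) and MMP14 (52.2 ± 3.92) led and overlapped, followed by ADAM10 (32.0 ± 1.81), MMP28 (25.8 ± 1.63), MMP1 (20.7 ± 1.10 RPKM) and ADAM17 (12.6 ± 0.330). MMP28 thus left the head of the order and stood below ADAM10, and MMP1 moved above ADAM17. TIMP3, TIMP2, MMP10 and MMP9 kept the last places, and MMP10 and MMP9 overlapped in the knockout. With the length of all exons joined in place of the longest transcript, MMP1 was already above ADAM17 in control cells (10.8 against 7.53 RPKM). MMP28 and MMP1 then overlapped in the knockout (21.1 and 20.7 RPKM).

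The other MMP genes form a list of 18. Among the 9 tested ones, 5 fell and 0 rose by edgeR's test, and the other 4 missed the threshold, with a median log2 fold change of -2.36. Over all tested genes 24.6% rose and 25.8% fell, which is the background for this and every further list. MMP13, or collagenase 3, which like MMP1 cuts fibrillar collagen, had 95.3, 113 and 102 CPM in control libraries and 11.8, 12.5 and 13.2 CPM in knockout libraries. Its log2 fold change was -3.05 (SE 0.08, adjusted p = 8.78e-27). MMP2, or gelatinase A, the enzyme that MMP14 and TIMP2 activate together, had 33.7, 40.0 and 37.7 CPM and then 4.84, 3.87 and 6.12 CPM (log2 -2.92, SE 0.13). For both genes the lowest control library was several times the highest knockout library.

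The other falls were of low-level genes. MMP12, or macrophage elastase, had 135 counts over control and 7 over knockout libraries (log2 -3.90, SE 0.49). MMP7, or matrilysin, had 102 and 2 counts. Scaled by library size, control was 42.4 times knockout, with an exact 95% interval of 11.4 to 355 for counting error. Both knockout counts were in library 2, and without it the fitted log2 value was -8.00, which rests on the prior count. MMP11, or stromelysin 3, had a log2 fold change of -2.36 (SE 0.52, adjusted p = 0.000242). MMP15, MMP17, MMP19 and MMP24 did not pass, with log2 values of 0.07, 0.50, -0.49 and 0.83. Without knockout replicate 3, MMP24 passed upward (log2 0.98, adjusted p = 0.0480).

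MMP2 lies on chromosome 16 in a region where 28 of 30 tested neighbours within 2 Mb were below 0 (median -0.52). MMP2 is also a gene of fibroblasts. The 10 fibroblast markers summed to 4.63 to 6.25 CPM in control and 1.30 to 2.45 CPM in knockout libraries. Only 2 of them were tested: COL3A1 fell (log2 -4.33) and COL1A1 stood at -0.59 without passing. All 4 knockout counts of COL3A1 were in library 3, and its fitted value was -8.04 without knockout replicate 3 and -3.71 without knockout replicate 2. DCN, PDGFRA and DPT were at 0 counts in all 6 libraries, FAP had 1 control and 1 knockout count, and THY1 had 6 and 9. The part of neighbouring genes or of such cells in the MMP2 result was not tested. In a bulk sample, fewer cells of a type and less RNA per cell cannot be told apart.

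**Figure D2:**
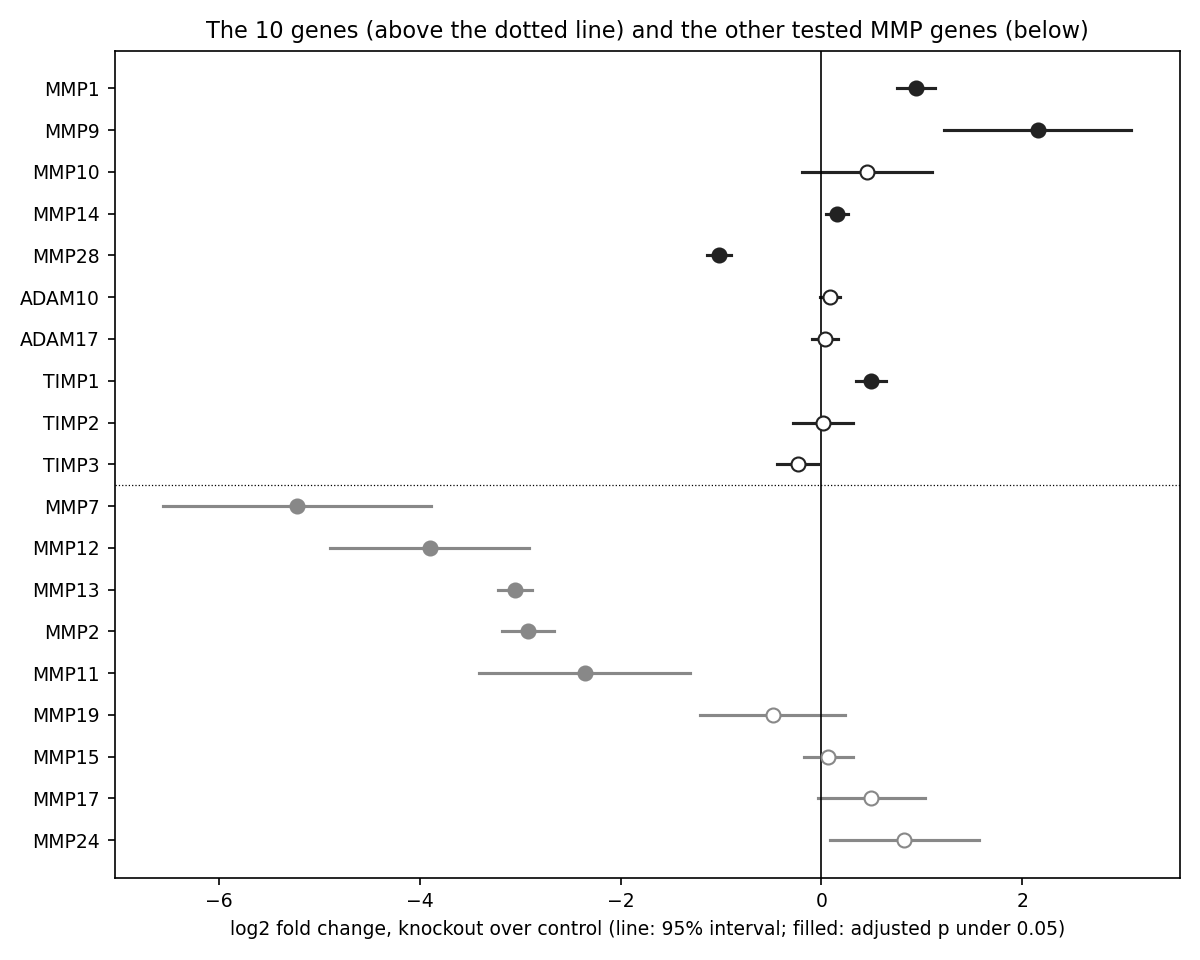
Log2 fold change, knockout over control, of the 10 genes (above the dotted line) and of the 9 other tested MMP genes (below), with 95% intervals from edgeR. Filled points passed an adjusted p of 0.05; the 5 filled points below the line lie between -5.22 and -2.36.

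MMP1 and MMP10 stand in a cluster of 9 MMP genes on chromosome 11, from 102520508 to 102955734. Along it, in rising coordinate order, come MMP7, MMP20, MMP27, MMP8, MMP10, MMP1, MMP3, MMP12 and MMP13, all on the minus strand. MMP7 at one end and MMP12 and MMP13 at the other fell, while MMP1 between them rose. MMP10, next to MMP1, did not pass, and MMP3, on its other side, had 2 control and 9 knockout counts and was not tested. MMP8 and MMP27 had 0 counts and MMP20 had 1. The cluster thus held both directions within 435 kb. Of 14 other tested genes within 2 Mb of MMP1, 6 were below 0 (median 0.04).

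RefSeq promoter windows (GRCh38.p14) matched 6 of the 10 genes: MMP10, MMP14, ADAM10, ADAM17, TIMP1 and TIMP3. The 250 bases before the start of MMP10 and of MMP7 are shown, as 2 genes of the cluster of which MMP7 fell and MMP10 did not pass. Capitals mark matches, on either strand, to the AP-1 motif TGANTCA, the PEA3/ETS motif AGGAAG and the TATA motif TATAAA, which do not overlap one another here. AP-1 and ETS factors are known inducers of several MMP genes.
MMP10, chr11:102780629-102780878, minus strand: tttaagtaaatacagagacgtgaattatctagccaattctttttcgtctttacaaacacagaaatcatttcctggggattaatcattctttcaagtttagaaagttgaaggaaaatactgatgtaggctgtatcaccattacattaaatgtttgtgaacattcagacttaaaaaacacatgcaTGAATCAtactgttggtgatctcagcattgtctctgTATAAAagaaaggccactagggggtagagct
MMP7, chr11:102530748-102530997, minus strand: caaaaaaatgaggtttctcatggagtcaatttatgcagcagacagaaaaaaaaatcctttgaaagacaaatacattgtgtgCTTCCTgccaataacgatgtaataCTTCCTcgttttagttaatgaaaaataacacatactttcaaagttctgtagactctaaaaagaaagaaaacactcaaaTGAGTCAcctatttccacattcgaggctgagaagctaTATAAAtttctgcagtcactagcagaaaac

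MMP10 and MMP7 have the AP-1 match at the same distance, beginning 67 bases before the start, as TGAATCA in MMP10 and TGAGTCA in MMP7. Their TATA matches begin 31 and 30 bases before it. MMP7 also has PEA3/ETS matches on the opposite strand, at 169 and 145 bases. MMP20, in the same cluster with 1 count in all, also has an AP-1 match (TGAATCA, at 112 bases) and a TATA match (at 72). The window of MMP8 has a TATA match at 110 bases, and that of MMP27 has no match. Of the 6 windows matched to genes of the set, 1 held the AP-1 motif and 3 the PEA3/ETS motif (ADAM10, ADAM17 and TIMP1). The RefSeq starts of ADAM10, ADAM17 and TIMP1 lie downstream of the GENCODE starts of these genes. Their PEA3/ETS matches thus fall inside the genes as GENCODE draws them. Among all 35116 windows of that length, 6.57% held the AP-1 motif, 28.7% the PEA3/ETS motif and 10.7% the TATA motif. These matches describe letters only, and binding was not measured.

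The RNA pool of MMPs changed its makeup. Over all 23 MMP genes, the summed level was 169 ± 5.85 RPKM in control and 113 ± 6.66 RPKM in knockout cells (SD, n = 3). MMP28 made up 31.0% ± 0.250 of it in control and 22.8% ± 1.15 in knockout cells, and MMP14 27.8% ± 1.82 and 46.0% ± 0.904. The level of MMP14 itself went only from 46.9 to 52.2 RPKM, so its share rose mainly because the sum was smaller. The share of MMP13 went from 22.5% ± 1.14 to 4.07% ± 0.329 and that of MMP1 from 6.39% ± 0.759 to 18.3% ± 0.460. For these 4 genes no control share overlapped a knockout share.

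MMP1 and MMP13 exchanged rank among the secreted collagenases. The ratio of MMP1 to MMP13 RPKM was 0.262, 0.266 and 0.324 in control libraries and 4.51, 4.77 and 4.25 in knockout libraries. The ratio needs no scaling between libraries. MMP1 rose and MMP13 fell, each without overlap, so the ratios of the 2 groups had to separate. A two-sided exact permutation test then gives p = 0.1, the smallest that 3 against 3 libraries allow, and adds no support.

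The summed level of the 5 MMP genes of the set was 111 ± 1.51 RPKM in control and 101 ± 6.14 RPKM in knockout cells, and that of the 3 TIMP genes 47.3 ± 0.954 and 62.8 ± 4.55. MMP over TIMP in the set was 2.37, 2.33 and 2.35 in control libraries and 1.56, 1.59 and 1.66 in knockout libraries. With all 23 MMP genes in place of the 5 it was 3.57 ± 0.0567 and 1.81 ± 0.0597. Each knockout library was below each control library by either count, as a description of RNA and with no test. TIMP1 held most of the TIMP sum, at 39.8 of 47.3 RPKM in control cells. Among the 5 MMP genes of the set, only MMP28 had a lower mean in knockout cells (52.3 to 25.8 RPKM). MMP14 went from 46.9 to 52.2 and MMP1 from 10.8 to 20.7 RPKM. The lower MMP sum of the set thus rests on MMP28, whose reads may be mixed with those of TAF15.

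**Figure D3:**
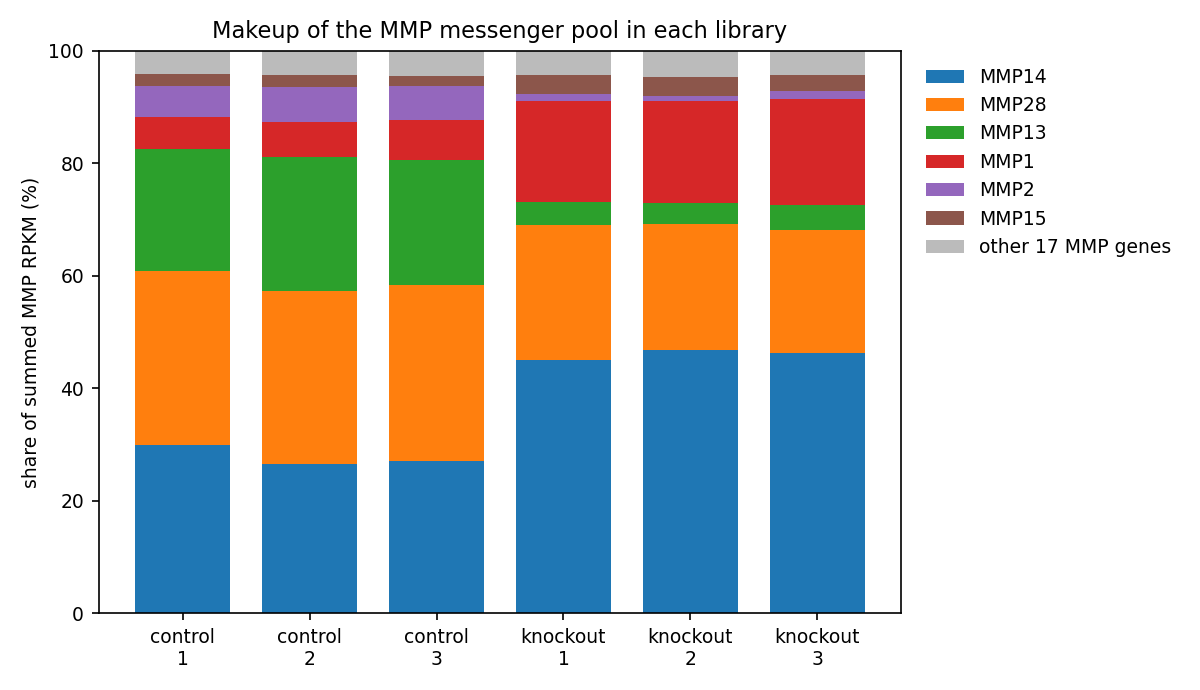
Share of each MMP gene in the summed RPKM of all 23 MMP genes (%, stacked to 100) in each of the 6 libraries. The 6 genes with the largest mean share are coloured and the rest are grey; MMP13 is 22.5% in control and 4.07% in knockout cells on average, and MMP1 6.39% and 18.3%.

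EGF receptor ligands are known substrates of ADAM10 and ADAM17. All 6 tested EGF receptor ligand genes of 7 listed rose, with a median of 1.65, where 24.6% of all tested genes rose. EGF itself, listed but below the filter on low counts, had 16 control and 3 knockout counts. AREG rose from 10.9 ± 1.47 to 80.1 ± 5.77 CPM, EREG from 26.9 ± 1.05 to 113 ± 2.57 and TGFA from 64.9 ± 7.95 to 247 ± 13.9. HBEGF, BTC and EPGN rose by 1.36, 0.79 and 0.63 on the log2 scale. EPGN missed the threshold with DESeq2 (adjusted p = 0.0965) and without control replicate 1 (0.0573), control replicate 2 (0.123), knockout replicate 2 (0.118) or knockout replicate 3 (0.0687). Of 23 tested genes of 26 other listed substrates, 9 rose and 8 fell (median 0.06), where 24.6% and 25.8% of all tested genes did. The Notch ligand gene JAG1 fell (log2 -0.90), and CD44, a hyaluronan receptor, and IL1R2, the interleukin decoy receptor, rose by 0.94 and 3.09.

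Partners of ADAM10 and ADAM17 split. Among 8 tested partner genes there were 2 rises and 3 falls, and 3 missed the threshold (median 0.03). Over all tested genes 24.6% rose and 25.8% fell, so counts of this size say little about the partners. TSPAN15 and TSPAN14, tetraspanins that escort ADAM10 to the cell surface, fell. TSPAN15 had 54.6, 57.6 and 57.3 CPM in control libraries and 30.0, 37.3 and 31.1 CPM in knockout libraries (log2 -0.78, SE 0.08, adjusted p = 1.84e-10). TSPAN14 had a log2 fold change of -0.32. TSPAN33, of the same group, also fell (-0.54), whereas TSPAN5 rose by 0.41. The fall of TSPAN33 missed the threshold with DESeq2 (adjusted p = 0.0749) and without control replicate 2 (0.0562) or knockout replicate 3 (0.162). FRMD8, which stabilizes the complex of ADAM17 with its iRhom carriers, rose by 0.27 (SE 0.06). RHBDF1 and RHBDF2, which encode the iRhoms, stood at 0.08 and -0.02 and missed the threshold.

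The list of other ADAM genes held 14, of which 6 were tested. There were 3 rises and 2 falls among them, with a median of 0.03, beside 24.6% and 25.8% over all tested genes. ADAM8, a protease of migrating and inflamed cells, had 62.2, 52.3 and 51.5 CPM in control libraries and 103, 122 and 113 CPM in knockout libraries (log2 1.03, SE 0.07). ADAM19 rose by 0.60 and ADAM9 by 0.26, and ADAM15 and ADAM23 had log2 fold changes of -0.21 and -0.52.

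Genes that act on pro-enzymes moved both ways. Among 8 tested activator genes, 5 went up, 2 went down and 1 missed the threshold (median 0.26). Of all tested genes, 24.6% went up and 25.8% down. PLAU, or urokinase, which makes plasmin, an activator of several pro-MMPs, rose from 73.5 ± 4.33 to 181 ± 18.2 CPM (log2 1.31). Its receptor gene PLAUR rose by 1.54. PLG, the gene of plasminogen, from which plasmin is made, had 0 counts in all 6 libraries. PLAT, the tissue plasminogen activator, fell (log2 -2.38), and so did the proprotein convertase gene PCSK5 (-1.28). FURIN, which cuts pro-MMP14, pro-MMP28 and pro-ADAMs, rose by 0.22, and the matriptase gene ST14 by 0.19.

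Of the other inhibitor and clearance genes 4 were tested, and 2 rose and 0 fell (median 1.10). TFPI2, a matrix-bound inhibitor of plasmin, rose from 7.89 ± 0.198 to 71.3 ± 3.23 CPM. A2ML1, a trap protein of epidermis that takes up proteases, had 8 control and 42 knockout counts (log2 2.58, SE 0.61). It was 3.38 without control replicate 1 and 1.89 without control replicate 2, and was not tested under the 1 CPM filter. RECK, a membrane inhibitor of MMPs, had a value of -0.43 (adjusted p = 0.266). LRP1, a receptor that clears MMPs, had one of -0.38 (adjusted p = 0.197), with overlapping groups, but passed with limma-voom (adjusted p = 0.00646).

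Genes of matrix substrates also split, with 6 rises and 8 falls among 15 tested (median -0.43). LAMA3 and LAMB3, which encode laminin chains of the epidermal basement membrane, rose by 1.59 and 0.65 on the log2 scale. TNC (-1.45) and the basement membrane collagen gene COL4A1 (-1.04) fell. Known inducers of MMP genes, 18 in number, showed 9 rises and 5 falls (median 0.13). For both lists the background was 24.6% rises and 25.8% falls over all tested genes. FOSL1, an AP-1 subunit, had 10.4, 9.03 and 8.20 CPM in control and 43.1, 49.6 and 44.3 CPM in knockout libraries (log2 2.31). ETS1, an ETS factor, rose by 1.16 and JUN by 0.82, while FOS (-2.11) and STAT3 (-0.75) fell. The AP-1 subunit genes FOSB (-1.55), JUNB (-0.48) and FOSL2 (-0.47) also fell, and JUND (-0.11) missed the threshold. Of the listed AP-1 subunits, only FOSL1 and JUN rose.

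**Figure D4:**
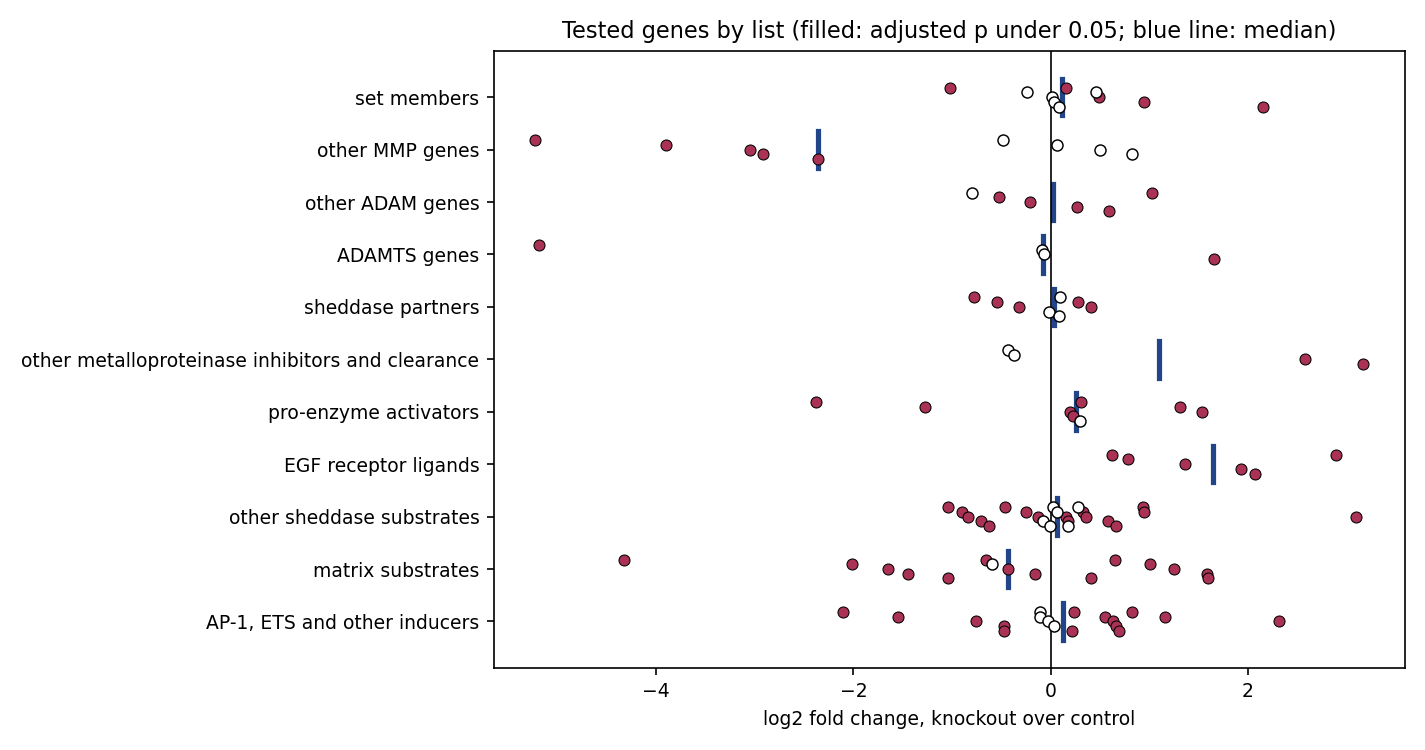
Log2 fold change, knockout over control, of each tested gene in the set and in the related lists, 1 line per list. Filled points passed an adjusted p of 0.05 and the blue line is the list's median, which is -2.36 for the other MMP genes and 1.65 for the EGF receptor ligands.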

How the data were processed

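Gene counts, not normalized, were deposited by the authors, with a column for each library. Libraries were made with a stranded total-RNA kit from RNA described as pools, per the labels' protocols. GRCh38 is the build named, per the submitters' processing notes. Aligner, counter and strand use: not given in the sources used here. Both the set and the lists were chosen with earlier results of these data known, as was the window of 2 Mb for neighbours.

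All 6 libraries entered 1 fit in edgeR 4.0.16 (R 4.3.3): filterByExpr (minimum count 10, minimum total count 15), TMM scaling, a two-sided robust quasi-likelihood F test and Benjamini-Hochberg adjustment over 12293 genes, with a threshold of 0.05. Standard errors were derived from the fold change and its F statistic. Fitted log2 values use a prior count of 0.125. CPM use TMM-adjusted library sizes, and RPKM divide CPM by transcript length; values are mean ± SD, n = 3. On simulated counts (12172 genes tested, 50 changed per fold size), recovery was 46% for a change of 1.25-fold, 76% for 1.5-fold, 90% for 2-fold and 94% for 4-fold. The calls were 23, 38, 45 and 47 changed genes, in that order, and 15 unchanged genes. Far fewer genes were changed there than the 6197 called in the data, so recovery in the data may differ. No 2 libraries of a group agreed within sampling noise (chi-square over its degrees of freedom, 2.65 to 4.49). Counting intervals are exact and cover counting error only.

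Named genes were SDR42E1, the 10 members, up to 3 genes with the smallest adjusted p per list, and the 5 genes nearest in pattern to the called member with the largest change; others were named after their values were seen. A gene that the rule names is not reported here. Alternatives were DESeq2 1.42.0, limma-voom (limma 3.58.1), other scalings and filters, the replicate block, leaving out each library, and, for RPKM, another gene length.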

Additional observations from a re-analysis of the deposited data

How the results depend on the processing

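Against 6197 called genes and 5 called members, the other settings gave 5315 to 6425 genes and 4 to 6 members, and leaving out 1 library gave 5338 to 6074 genes and 4 to 6 members. MMP1, MMP9, MMP28 and TIMP1 kept direction and side of the threshold in all 13 alternatives, with log2 ranges of 0.85 to 1.03, 1.77 to 2.56, -1.05 to -0.97 and 0.42 to 0.55; MMP10 was never called. Values near 0 changed sign without being called: ADAM17 was -0.036 without control replicate 3, and TIMP2 was -0.016 with upper-quartile scaling, -0.0030 without control replicate 1, -0.066 without control replicate 2 and -0.076 without knockout replicate 3. ADAMTS1 was 0.077 without control replicate 1. Leaving out 1 library gave -0.036 to 0.078 for ADAM17, -0.076 to 0.11 for TIMP2, -0.18 to 0.077 for ADAMTS1, -0.26 to 0.057 for ADAMTS15, -0.026 to 0.18 for MMP15 and -0.13 to 0.086 for RHBDF2. Also without being called, ADAMTS15 was 0.019 without control replicate 2, 0.0030 without control replicate 3 and 0.057 without knockout replicate 1, MMP15 was -0.026 without knockout replicate 2, and RHBDF2 was 0.068 without control replicate 1, 0.031 without control replicate 2 and 0.086 without knockout replicate 1. The cause was not tested. With the stricter filter (1 CPM in 3 libraries), 1 of the other inhibitor and clearance genes was called in place of 2, since A2ML1 was not tested there. Among markers of other cells, the leukocyte list had 0 to 1 calls and the endothelial list 0 to 1 when 1 library was left out, and the endothelial list 0 with DESeq2.

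With the length of all joined exons, summed RPKM in control and knockout cells was 93.9 and 87.5 for the 5 MMP genes, 34.9 and 45.7 for the 3 TIMP genes, 28.8 and 30.3 for the 2 ADAM genes and 146 and 98.7 for all 23 MMP genes. MMP over TIMP was then 2.69 and 1.92 for the set and 4.19 and 2.16 for all MMP genes. These changes follow from the lengths used.

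Deviations from the group means of libraries with the same number correlated at 0.05, -0.04 and 0.06, and the numbers were treated as names only. The replicate block gave 6425 genes and 6 members, TIMP3 being the added one (adjusted p = 0.0454). ADAM19 lost its call with the replicate block (log2 0.60, adjusted p = 0.105). LRP1 passed with the replicate block (adjusted p = 2.57e-09) and with limma-voom (0.00646). At this depth MMP9 and MMP10 rest on 18 to 79 counts per group, which limits their intervals.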

Other observations

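The ADAMTS genes, secreted relatives of the ADAMs that cut proteoglycans and other matrix proteins, were mostly below the filter on low counts. Of 19 listed, 4 were tested, 1 rose and 1 fell, and 5 had 0 counts in every library. ADAMTS6 had 13.9, 13.8 and 11.9 CPM in control libraries and 40.5, 44.3 and 40.6 CPM in knockout libraries, with no overlap (log2 1.66, SE 0.09). ADAMTS12 had 191 counts over control and 4 over knockout libraries (log2 -5.19, SE 0.51), with -6.46 without knockout replicate 1 and -4.58 without knockout replicate 2. ADAMTS1 and ADAMTS15 had values of -0.07 and -0.09 that did not pass.

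Genes below the filter included MMP16, a membrane-type MMP, with 36 control and 2 knockout counts, so that control was 14.96 times knockout by library size, with an exact 95% interval of 3.85 to 128 for counting error. TIMP4 had 8 control and 0 knockout counts.

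The member with the largest called change was MMP9. The 5 genes whose centred log2 CPM over the 6 libraries lay nearest to it, among 10660 candidates whose log2 CPM averaged 2 or more, were CD274, ECM1, HS3ST1, SLC44A4 and WFDC2. Their distances were 0.82, 0.94, 1.06, 1.07 and 1.14 on the log2 scale, and their log2 fold changes 1.69, 2.11, 1.79, 1.70 and 1.07. These log2 CPM carry a larger prior count than the fit, which draws changes of low-count genes toward none. MMP9 had only 2 to 35 counts per library, so nearness to it is uncertain.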
